A study of Mus musculus with 6 samples.

Results

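Transcripts of 10 neuropeptide genes that serve feeding, body weight and arousal were followed in the brains of mice fed a control diet or a diet with PLDP, the protease-treated porcine liver decomposition product. The genes were Pomc, Agrp, Npy, Cartpt, Hcrt, Pmch, Gal, Trh, Oxt and Ghrh. They were picked by name, and all 10 were found by Ensembl identifier among the 60354 features of each file. Of these 10 genes, 8 had enough reads for the test and are among the 18580 features tested, while Agrp and Ghrh did not pass the filter on low counts. All animals were male C57BL/6NCrSlc mice with no other allele or agent, 16 weeks old at the start of 16 weeks on the diet. The 3 control mice, numbers 2, 5 and 10, received a modified AIN-93M diet of matched calories. PLDP made up 20% of what the 3 PLDP mice, numbers 17, 22 and 26, were fed. According to the paper, their diet also held less casein and soybean oil and more cystine and α-cornstarch than the control diet. PLDP was therefore not the only ingredient that differed. Both groups then went through 17 days of behavioral tests, during which PLDP was not given, and RNA was taken from the whole brain on day 18. The comparison therefore asks how these transcripts differed after a long diet followed by 17 days without PLDP, in tissue that includes every brain region.

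These peptides are made as longer precursors, which convertases cut within secretory granules, and they act on G protein-coupled receptors. In the arcuate nucleus, neurons with Agrp and Npy drive feeding and neurons with Pomc and Cartpt restrain it, and both converge on melanocortin receptors. Neurons of the lateral hypothalamus make either orexin (Hcrt), which sustains wakefulness, or melanin-concentrating hormone (Pmch), which promotes feeding and sleep. Oxt and Trh are products of the paraventricular nucleus, Ghrh releases growth hormone, and Gal is made in many places, among them the preoptic area, the locus coeruleus and the medulla. Npy, Cartpt and Trh are also transcribed outside the hypothalamus. In bulk tissue, fewer cells of a type and less RNA per cell cannot be told apart.

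The libraries held between 18797061 and 23938729 counts, and expression is given as CPM, read counts scaled to the library size with edgeR's TMM factors. Among the other features of these brains, markers of the caudal hindbrain, most of them Hox genes, were lower in the PLDP mice. The summed level of the 13 genes on that list was between 148.8 and 162.6 CPM in the control mice and between 77.5 and 117.5 CPM in the PLDP mice, and 10 of the 11 tested genes were lower with an unadjusted p under 0.05, against 3.69% of all features. Of the 7 choroid plexus markers, 3 were lower at that threshold, and 3 of 10 markers of cortex and hippocampus were higher, against 4.91% of all features. PLDP mouse 17 stood apart from the other libraries. Over all features, 913 were called higher and 685 lower with all 6 mice and 6 passed the adjusted p, whereas without this mouse 1293 were higher and 1072 lower of 18848 tested and 182 passed it in edgeR. The labels do not say whether mice shared a litter or a cage. The p-values take the 6 animals as independent, and an effect of cage or litter, if present, could not be separated from diet.

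The upstream sequences of the 3 genes that passed the test, Gal, Pmch and Cartpt, are shown because the results turn on them. They are from RefSeq on GRCm38.p6, in which 9 of the 10 genes have a window, and read 5′ to 3′ on the gene's own strand. Capitals mark the letters TGACG (the half-site of the cyclic AMP response element, CRE), TGAGTCA, to which AP-1 factors bind, and TATAAA, the core promoter box for the general transcription machinery. Each was searched on both strands. The 250 bases before the start of Gal lie at chr19:3414545-3414794 on the minus strand, those of Pmch at chr10:88090822-88091071 on the plus strand, and for Cartpt 30 bases around the CRE are given, at chr13:99900777-99900806 on the minus strand.
Gal: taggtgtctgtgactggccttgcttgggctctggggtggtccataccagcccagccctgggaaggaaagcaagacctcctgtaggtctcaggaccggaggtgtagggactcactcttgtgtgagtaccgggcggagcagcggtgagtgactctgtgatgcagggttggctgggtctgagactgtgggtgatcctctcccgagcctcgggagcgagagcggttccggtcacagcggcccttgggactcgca
Pmch: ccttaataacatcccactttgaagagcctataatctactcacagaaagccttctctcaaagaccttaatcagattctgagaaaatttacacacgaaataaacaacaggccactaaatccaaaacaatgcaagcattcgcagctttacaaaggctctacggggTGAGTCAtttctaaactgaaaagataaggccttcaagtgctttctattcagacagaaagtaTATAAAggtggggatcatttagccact
Cartpt: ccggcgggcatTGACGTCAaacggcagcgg

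The Gal window held none of the 3 motifs, which says only that these letters are not in those 250 bases. Pmch had TATAAA beginning 27 bases and TGAGTCA beginning 88 bases before its start. Cartpt carried the full palindromic CRE, TGACGTCA, beginning 112 bases before the start, in which the half-sites of both strands overlap. These 30 bases fall in the 5′ UTR of another annotated Cartpt transcript of GENCODE M21. The full CRE was found in 1.55% of all 32851 such windows, TGACG in 17.8%, TGAGTCA in 4.46% and TATAAA in 12.4%. Among the 10 windows of the peptide genes, Cartpt was the only gene with the full CRE, TGACG was found in Cartpt, Ghrh and Trh, and TATAAA in Ghrh, Hcrt, Pmch and Pomc. A match describes the letters and not a bound site.

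The levels of the 10 transcripts spanned a wide range. Per kilobase of exon and over all 6 mice, Npy was highest at 54.9 ± 1.94 CPM per kb (SD, n = 6), and its lowest mouse was above the highest mouse of every other gene. Pmch, Oxt, Cartpt and Trh followed with mean levels of 18.8, 14.3, 12.9 and 10.8 CPM per kb, and in this order the ranges of each neighboring pair overlapped. Hcrt and Gal stood at 4.79 and 3.83 CPM per kb and also overlapped each other. Pomc had 2.15 CPM per kb, below all values of Gal. Ghrh and Agrp were the lowest, with 0.425 and 0.164 CPM per kb, and their ranges were separate from the rest. Their own ranges nearly met, at 0.2784 for the lowest Ghrh and 0.2754 for the highest Agrp. With at most 8 counts in a mouse, the order of these 2 is not resolved. Hypothalamic transcripts are diluted in whole brain, and the order of these levels belongs to the whole organ.

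**Figure D1:**
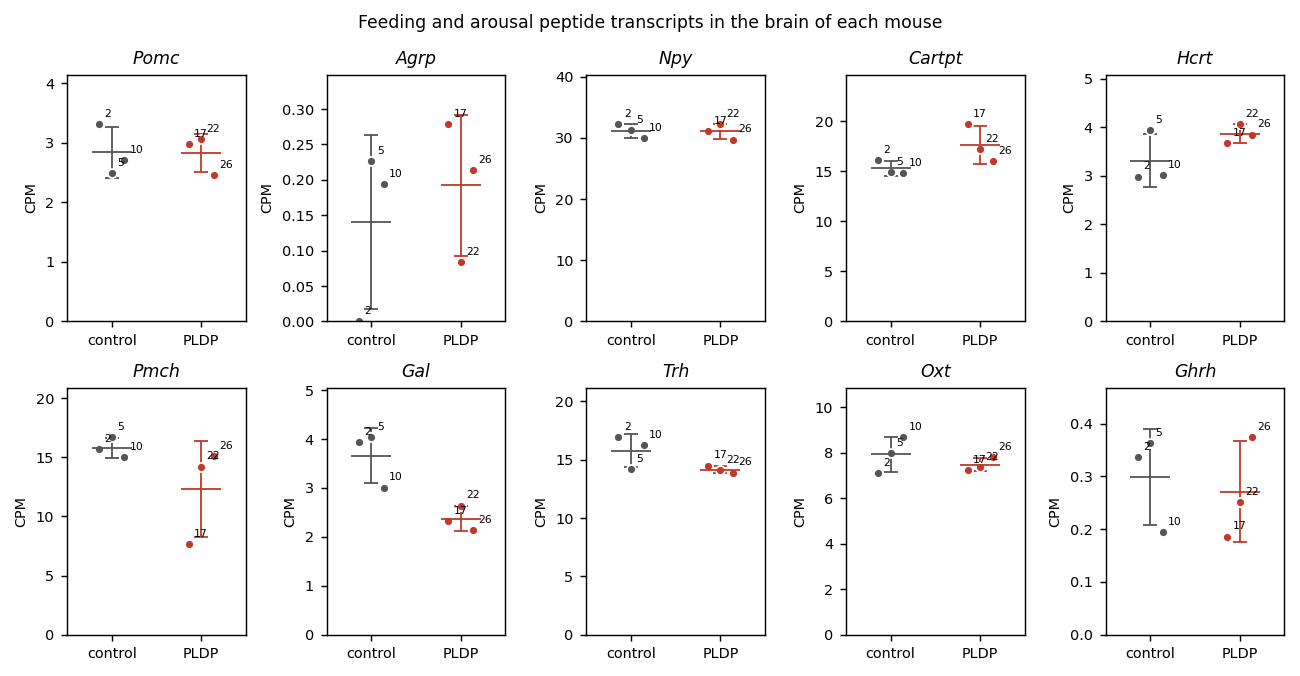
Level of each peptide transcript in CPM (counts scaled to library size, linear axes from 0) in the 3 control mice (gray) and the 3 PLDP mice (red). Points are single mice with their numbers, and the bar with whiskers is the mean ± SD. Gal is the only gene with all PLDP mice below all control mice, and Pmch of PLDP mouse 17 lies apart from the other mice at 7.67 CPM.

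Of the 8 tested peptide genes, 3 had an unadjusted p under 0.05 in edgeR's quasi-likelihood test, against 8.6% of all features tested. Gal and Pmch fell and Cartpt rose in the PLDP mice. The lower direction was called for 3.69% and the higher for 4.91% of all features. With Benjamini-Hochberg adjustment over the 18580 features, 0 of the 8 genes passed 0.05, beside 0.0323% of all features. None passed with limma voom or DESeq2 either, and without the filter on low counts Pmch alone did (adjusted p = 0.0369 from edgeR), in a fit where 180 of 36099 features passed. Leaving out PLDP mouse 17 reduced the 3 genes to 1, while the features called among all tested rose as given above. DESeq2 also called 1 of the 8, and 564 features higher and 362 lower of 18580. The median log2 fold change of the 8 genes was -0.045, beside -0.00062 over all features. Their summed level with Agrp and Ghrh was 98.7, 96.2 and 93.7 CPM in control mice 2, 5 and 10 and 89.7, 95.3 and 91.6 CPM in PLDP mice 17, 22 and 26, so that the diets overlapped.

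Gal, the gene of galanin, a peptide that stimulates intake of food and quiets arousal neurons, showed the clearest difference. It lies on chromosome 19 of GRCm38 from 3409915 to 3414544 on the minus strand (ENSMUSG00000024907). Its level was 3.94, 4.04 and 3.01 CPM in control mice 2, 5 and 10 and 2.32, 2.64 and 2.14 CPM in PLDP mice 17, 22 and 26. All 3 PLDP mice were thus below all 3 control mice, a separation found for 14.2% of all tested features, 6.9% with the PLDP mice lower and 7.29% with them higher. The means were 3.66 ± 0.570 and 2.37 ± 0.255 CPM (SD, n = 3 mice per diet), a fitted ratio of 0.650 (log2 fold change -0.62, standard error 0.18, 95% interval -0.996 to -0.248). In edgeR the unadjusted p was 0.0027 and the adjusted p 0.306. The exact two-sided permutation test gave p = 0.1, the smallest that 3 mice against 3 allow. In each of the 6 fits without 1 mouse Gal kept an unadjusted p under 0.05, with log2 fold changes between -0.74 and -0.55. It rested on few reads, between 40 and 89 per mouse.

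Markers of 3 regions that make galanin were set beside it. The caudal hindbrain list fell in the PLDP mice as given above, and the lowest hindbrain sum (77.5 CPM) was in PLDP mouse 22, which had the highest Gal of the PLDP group. The 6 markers of the locus coeruleus summed to between 33.4 and 36.9 CPM in the control mice and between 31.6 and 35.3 CPM in the PLDP mice. Most of that sum was Th, with between 23.3 and 26.3 CPM in a mouse, so it mainly follows this 1 gene. Dbh, the enzyme that makes noradrenaline, did not pass the test (log2 fold change -0.21, 95% interval -0.61 to 0.19). The 16 hypothalamus markers summed to between 104.8 and 113.3 CPM in the control mice and between 96.9 and 107.8 CPM in the PLDP mice, and of 11 tested all had a negative log2 fold change and 1 passed, Gpr101, an orphan receptor (log2 fold change -0.24, adjusted p = 0.47 from edgeR), beside 8.6% of all features. The 5 untested genes of the list had few counts, and the mean of 4 of them was the higher one in the PLDP mice, such as Sim1 with 0.441 CPM in the control and 0.760 CPM in the PLDP mice. The part of these tissues in the Gal result was not tested. When the level of Gal was read relative to the geometric mean of the tested hypothalamus markers, the log2 fold change was -0.54 and the unadjusted p 0.045.

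**Figure D2:**
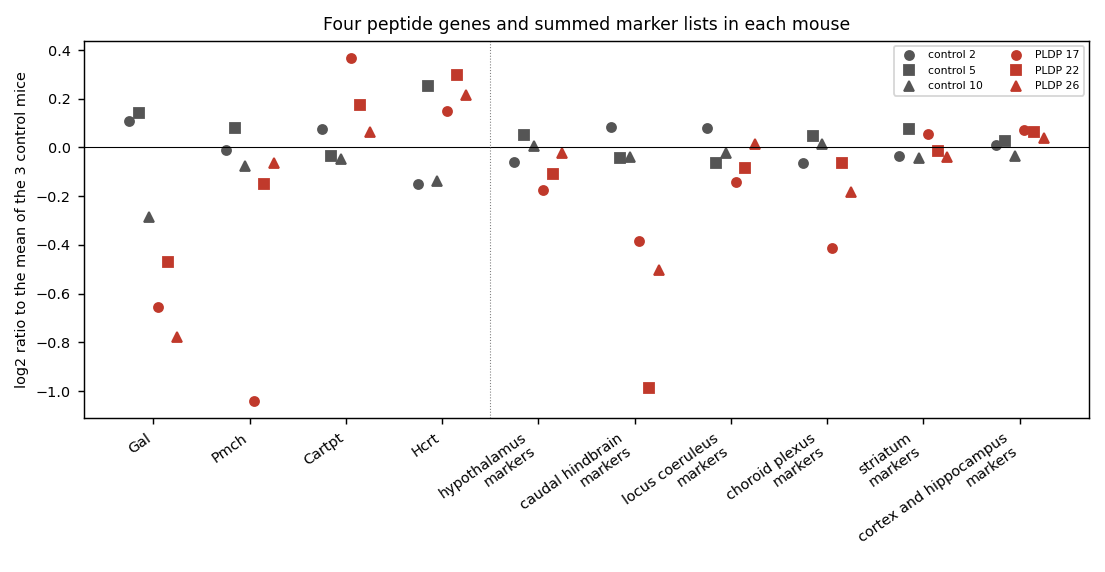
Values of each mouse as log2 ratio to the mean of the 3 control mice, for the CPM of 4 peptide genes (left of the dotted line) and for the summed CPM of 6 marker lists (right). Gray symbols are control mice and red symbols PLDP mice. Gal, the caudal hindbrain markers and, by a small margin, the choroid plexus markers are below every control mouse in all 3 PLDP mice, the markers of cortex and hippocampus are above every control mouse, and Pmch falls far below 0 in PLDP mouse 17 alone.

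Pmch, the precursor of melanin-concentrating hormone, is on chromosome 10 from 88091072 to 88092375 (ENSMUSG00000035383). It had 15.7, 16.7 and 14.99 CPM in control mice 2, 5 and 10 and 7.67, 14.2 and 15.1 CPM in PLDP mice 17, 22 and 26. PLDP mouse 17 stood far below all others, PLDP mouse 22 lay just below the control range and PLDP mouse 26 within it. PLDP mouse 17 also had the lowest sum of hypothalamus markers, 96.9 CPM against 101.5 to 113.3 CPM in the other 5 mice. The geometric mean of the 11 tested markers, which weights them equally, was 2.68 CPM in PLDP mouse 17 and 2.73 CPM in control mouse 2, whose Pmch was 15.7 CPM. This mean is imprecise because some of the markers had few counts. Nr5a1 had 4 counts in PLDP mouse 17 and 3 in control mouse 2, and Bsx had 9 and 5. The part of these cells in the Pmch level was not tested. The group means were 15.8 ± 0.859 and 12.3 ± 4.07 CPM (SD, n = 3 mice per diet), and the fit gave a log2 fold change of -0.36 (standard error 0.16, 95% interval -0.70 to -0.02, unadjusted p = 0.0391, adjusted p = 0.549 from edgeR). Without PLDP mouse 17 the log2 fold change was -0.11 and the unadjusted p 0.229, and the call was also lost without control mouse 2 or control mouse 5. The exact permutation p was 0.2. This gene overlaps 435 exonic bases of Parpbp on the opposite strand, and whether the counting used strand is not given in the sources used here. Parpbp had at most 12 counts in a mouse, against at least 165 for Pmch.

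Hcrt, the orexin precursor (chromosome 11 from 100761069 to 100762931, ENSMUSG00000045471), is made by neighboring neurons of the same lateral hypothalamic field and did not share this pattern. Its levels were 2.98, 3.95 and 3.01 CPM in control mice 2, 5 and 10 and 3.67, 4.07 and 3.85 CPM in PLDP mice 17, 22 and 26. PLDP mouse 17 was within the range of the control mice here, and the diets overlapped through control mouse 5. The log2 fold change was 0.22 (standard error 0.16, 95% interval -0.12 to 0.56, adjusted p = 0.748 from edgeR), and without control mouse 5 it was 0.37 with an unadjusted p of 0.0484. The difference between Hcrt and Pmch was not tested.

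Cartpt encodes the cocaine- and amphetamine-regulated transcript peptide, which reduces food intake and is also abundant in the nucleus accumbens and the Edinger-Westphal nucleus. It lies on chromosome 13 from 99898489 to 99901091 on the minus strand (ENSMUSG00000021647). The control mice 2, 5 and 10 had 16.1, 14.9 and 14.8 CPM and the PLDP mice 17, 22 and 26 had 19.7, 17.2 and 16.0 CPM. PLDP mouse 26 was just under control mouse 2, so the diets overlapped at that point. Means were 15.3 ± 0.729 and 17.6 ± 1.90 CPM (SD, n = 3 mice per diet), a rise of 15.7% (log2 fold change 0.21, standard error 0.09, 95% interval 0.02 to 0.40, unadjusted p = 0.0296, adjusted p = 0.516 from edgeR). The rise was 0.12 on the log2 scale without PLDP mouse 17, with an unadjusted p of 0.165, and the call was lost as well without control mouse 5 or control mouse 10. The exact permutation p was 0.2. None of 7 striatum markers passed the test, with sums of 474.7 to 516.3 CPM in the control and 476.5 to 509.0 CPM in the PLDP mice. Ucn, which marks the Edinger-Westphal nucleus, had a log2 fold change of 0.32 with a 95% interval of -0.46 to 1.10.

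Pomc and Npy gave no call. Pomc, the precursor of the melanocortins (chromosome 12 from 3954951 to 3960642, ENSMUSG00000020660), had 3.32, 2.495 and 2.72 CPM in control mice 2, 5 and 10 and 2.98, 3.06 and 2.46 CPM in PLDP mice 17, 22 and 26. The values were interleaved, and the 95% interval of the log2 fold change ran from -0.37 to 0.38, which is a ratio of 0.773 to 1.30. Pomc is the main product of pituitary corticotrophs and melanotrophs as well. All 10 pituitary markers together had between 4 and 15 counts per mouse, with Lhb and Pou1f1 at 0 in every mouse, so defining pituitary transcripts were at or near 0. Npy (chromosome 6 from 49822710 to 49829507, ENSMUSG00000029819), which stimulates feeding in the arcuate nucleus and marks interneurons of cortex and hippocampus, varied least. It had 32.2, 31.3 and 29.9 CPM in control mice 2, 5 and 10 and 31.2, 32.3 and 29.7 CPM in PLDP mice 17, 22 and 26. The 95% interval of its log2 fold change was -0.13 to 0.13 (fold 0.911 to 1.09), the narrowest of the 8 genes. The 5 markers of cortical interneurons with Npy summed to between 225.9 and 234.6 CPM in the control mice and between 239.99 and 245.9 CPM in the PLDP mice, without overlap. Of single tested features, 14.2% were without overlap. Most of the sum was Sst and Nos1, with means of 116.1 and 94.8 CPM in the control and 120.3 and 102.6 CPM in the PLDP mice. Of the 5, 4 had a positive log2 fold change and 1, Chodl, a negative one (-0.04). Only 1 passed, beside 8.6% of all features. It was Nos1, the neuronal nitric oxide synthase, which was higher (log2 fold change 0.11, unadjusted p = 0.045 and adjusted p = 0.565 in edgeR). The part of these cells in the Npy level was not tested.

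Agrp, the melanocortin receptor antagonist (chromosome 8 from 105566698 to 105637393, ENSMUSG00000005705), was near the limit of detection. Control mice 2, 5 and 10 had 0, 5 and 4 counts and PLDP mice 17, 22 and 26 had 6, 2 and 4 counts. The count of 0 in control mouse 2 allows a level of up to 0.144 CPM, taking 3 counts as the limit and covering counting error only. The exons of Agrp share 114 bases with Ctcf on the opposite strand and 114 bases with Gm5914 on its own strand, and Ctcf had between 1360 and 1802 counts. Ghrh, which drives release of growth hormone (chromosome 2 from 157329497 to 157347506, ENSMUSG00000027643), had 7, 8 and 4 counts in control mice 2, 5 and 10 and 4, 6 and 7 counts in PLDP mice 17, 22 and 26. A difference between the diets was not detectable for these 2 genes at this depth.

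Oxt and Trh, both products of the paraventricular nucleus, stayed above the threshold of the test. Oxt, the precursor of oxytocin (chromosome 2 from 130576173 to 130577054, ENSMUSG00000027301), had 7.12, 7.98 and 8.68 CPM in control mice 2, 5 and 10 and 7.25, 7.38 and 7.80 CPM in PLDP mice 17, 22 and 26. The PLDP values all lay within the control range, and the log2 fold change was -0.09 (95% interval -0.32 to 0.15, adjusted p = 0.883 from edgeR). Oxt and its neighbor Avp share a closely similar exon, and reads there may have been counted for either. Trh, the precursor of thyrotropin-releasing hormone (chromosome 6 from 92242061 to 92244650, ENSMUSG00000005892), had 16.9, 14.2 and 16.2 CPM in control mice 2, 5 and 10 and 14.5, 14.1 and 13.9 CPM in PLDP mice 17, 22 and 26. Control mouse 5 was as low as the PLDP mice. The log2 fold change of Trh was -0.16 (95% interval -0.34 to 0.03, unadjusted p = 0.0905, adjusted p = 0.641 from edgeR), and without control mouse 5 it was -0.23 with an unadjusted p of 0.023.

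**Figure D3:**
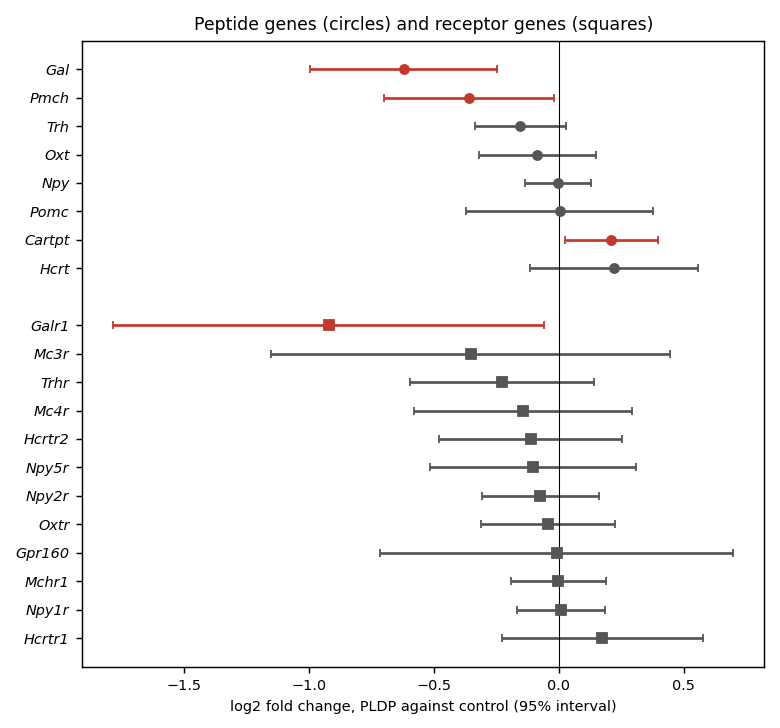
Log2 fold change of PLDP against control mice with its 95% interval from edgeR's fit, for the 8 tested peptide genes (circles) and the 12 tested receptor genes (squares). Red marks an unadjusted p under 0.05, reached by Gal, Pmch, Cartpt and Galr1. The widest intervals belong to receptor genes with few reads.

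The receptors of these peptides were counted as well. Of 17 listed receptor genes, 16 were in the files and 12 were tested, with 0 higher and 1 lower in edgeR's unadjusted test (called: 8.6% of all features). The median log2 fold change was -0.089. The 1 lower gene was Galr1, a galanin receptor coupled to inhibition of neurons and the galanin receptor with the most reads here. Galr1 had 0.962, 0.408 and 1.07 CPM in control mice 2, 5 and 10 and 0.372, 0.335 and 0.588 CPM in PLDP mice 17, 22 and 26. Control mouse 5 lay among the PLDP mice, and the counts were between 8 and 22 per mouse. Its log2 fold change was -0.92 (standard error 0.41, 95% interval -1.78 to -0.06, unadjusted p = 0.0378, adjusted p = 0.545 from edgeR). The call was lost without control mouse 2, control mouse 10 or PLDP mouse 22, and with DESeq2 or limma voom. Galr2 and Galr3 had at most 2 counts in any mouse.

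For the other peptides, the receptor with the most reads gave no call. Mchr1, the receptor of melanin-concentrating hormone, had 15.1 ± 0.56 CPM in the control and 15.1 ± 1.63 CPM in the PLDP mice (SD, n = 3 per diet), with a 95% interval of its log2 fold change of -0.19 to 0.19. Npy1r had an interval of -0.17 to 0.18, Mc4r, through which melanocortins curb feeding, of -0.58 to 0.29, and Hcrtr2, the orexin receptor tied to wakefulness, of -0.48 to 0.25. Those of Oxtr and Trhr were -0.31 to 0.22 and -0.60 to 0.14. Gpr160, a proposed receptor of the Cartpt peptide, had an interval of -0.72 to 0.70. Ghrhr had 1 count in PLDP mouse 26 and 0 in the other 5 mice. Trhr2 was not analysed here.

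Genes that process the precursors, that sense metabolic hormones or that control these neurons gave 1 call. Of the 8 genes that process precursors, such as the convertases Pcsk1 and Pcsk2 and the trimming enzyme Cpe, 0 passed an unadjusted p of 0.05 in edgeR, and their log2 fold changes were between -0.09 and 0.05. Of 8 tested genes for metabolic hormone sensing on feeding neurons, which are receptors such as Lepr, Insr and Glp1r, the accessory protein Ramp3 and the signaling inhibitor Socs3, 0 passed in edgeR. Of 12 tested transcription factors and other regulators of these neurons, 1 passed: Pou3f2, needed for the paraventricular and supraoptic neurons, was lower in all 3 PLDP mice (22.4 ± 1.10 against 19.4 ± 1.65 CPM, SD, n = 3 per diet, log2 fold change -0.20, adjusted p = 0.46 from edgeR). Of 11 tested genes among other hypothalamic peptides, 1 passed: Adcyap1, the precursor of PACAP, fell from a mean of 23.1 to 19.8 CPM (n = 3 per diet, log2 fold change -0.23, standard error 0.08, adjusted p = 0.42 from edgeR), and all 3 PLDP mice were below the control mice. These shares stand beside the 8.6% called among all features. The values of Pou3f2 and Adcyap1 did not overlap between the diets. Those of Arnt2, another regulator on the list that did not pass (log2 fold change -0.075, unadjusted p = 0.0718 from edgeR), did not overlap either. Separation with the PLDP mice lower was found for 6.9% of all tested features.

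The peptide genes did not rank the mice alike. Among the 8 tested genes, PLDP mouse 26 had the lowest level in 4 (Pomc, Npy, Gal and Trh) and control mouse 2 in 2 (Hcrt and Oxt). Control mouse 10 was lowest for Cartpt and PLDP mouse 17 for Pmch. PLDP mouse 22 was the highest in 2 (Npy and Hcrt), control mouse 2 in 2 (Pomc and Trh), control mouse 5 in 2 (Pmch and Gal), and control mouse 10 and PLDP mouse 17 in 1 each. The coefficient of variation over all 6 mice was 3.53% for Npy, 7.56% for Oxt, 8.56% for Trh, 11.1% for Cartpt, 12.0% for Pomc, 13.3% for Hcrt, 23.0% for Pmch and 26.9% for Gal. The tested gene most like each peptide gene over the 6 mice, by the highest Pearson correlation of log2 CPM, was Sh3yl1 for Gal (0.993), Atp8b2 for Pmch (0.997) and Gm12397 for Cartpt (0.994). For the others it was Rps6ka1 for Pomc, Gm43300 for Npy, Slc27a3 for Hcrt, Xkr8 for Trh and CT030661.1 for Oxt. These are the highest values among all tested genes over 6 mice and are given as a description.

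**Figure D4:**
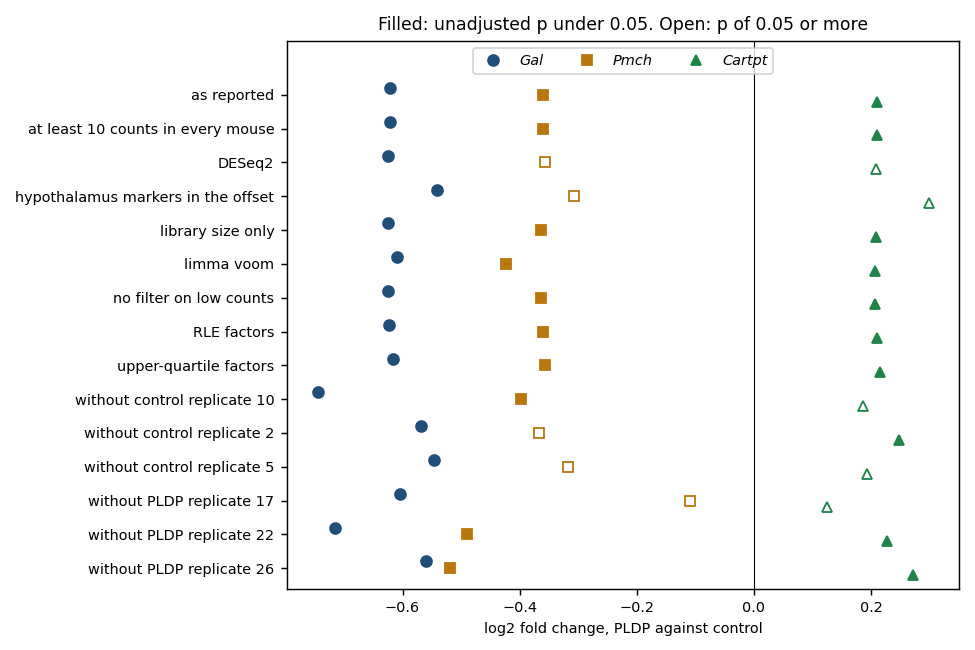
Log2 fold change of PLDP against control mice for Gal (circles), Pmch (squares) and Cartpt (triangles) as reported (top line) and under each of 14 other settings of the analysis. Filled symbols have an unadjusted p under 0.05. Gal is filled in every setting shown, and the value of Pmch nearest to 0, -0.11, is the one without PLDP mouse 17.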

How the data were processed

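Polyadenylated RNA from the whole brains of 3 control and 3 PLDP mice was sequenced after strand-marking library preparation. Raw read counts, whole numbers per gene without normalization, were deposited for each mouse. The submitters' processing notes name cutadapt 2.9, HISAT2 2.2.0, featureCounts 2.6.0 and DESeq2 1.6.3, and the builds GRCm38 and GRCh38, without roles. The strand setting and the treatment of shared reads are not given in the sources used here. Groups came from the labels.

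Symbols, coordinates and exon lengths were taken from GENCODE M21 (GRCm38), which holds 54777 of 55034 Ensembl identifiers in the files. A further 5320 numbered features were kept. Counts were filtered with filterByExpr (minimum count 10, minimum total 15), scaled by TMM and tested over all features in edgeR 4.0.16 (R 4.3.3, glmQLFit and glmQLFTest), with diet alone in the model. Calls were made where the unadjusted p was below 0.05, with Benjamini-Hochberg values beside it. Intervals are the fitted value and its standard error at 95%. The fit was checked on simulated data. Alternatives were other scaling factors and filters, DESeq2 1.42.0, limma voom 3.58.1, an offset from 11 hypothalamus markers and leaving out each mouse. Plots used matplotlib 3.10.9 under Python 3.11.15.

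Genes named are the 10 peptide genes, the receptor with the most reads for each, listed genes with an unadjusted p under 0.05 and the gene most like each peptide gene. Galr2, Galr3, Parpbp, Ctcf, Gm5914, Dbh, Ucn, Arnt2 and members named as examples of lists were added after their values were seen. A listed marker gene that met this rule is not reported here. The peptide genes and all lists were chosen with earlier results of these data known. Total counts per mouse were between 18797061 and 23938729, so that genes with few counts, such as Agrp, are imprecise.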

Additional observations from a re-analysis of the deposited data

How the results depend on the processing

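Gal was lower with an unadjusted p under 0.05 in all 14 alternatives, with log2 fold changes between -0.74 and -0.54 (-0.74 to -0.55 when 1 mouse was left out). Pmch and Cartpt kept their direction in every alternative but not their call. With DESeq2 their log2 fold changes were -0.36 and 0.21, and with hypothalamus markers in the offset -0.31 and 0.30, and neither passed in these. Leaving out 1 mouse gave -0.52 to -0.11 for Pmch and 0.12 to 0.27 for Cartpt. The number of peptide genes called was thus 1 with DESeq2, 1 with the offset (where 297 of all 18580 features were called higher and 57 lower) and 1 to 3 with a mouse left out (without control mouse 5 the 3 were Gal, Hcrt and Trh). The receptors called were 0 with at least 10 counts in every mouse, where Galr1 is not tested, 0 with DESeq2, 0 with limma voom and 0 to 1 with a mouse left out. Genes near 0 changed sign: Pomc was -9.22e-05 with DESeq2 and between -0.085 and 0.13 with a mouse left out, Npy was 0.077 with the offset, 0.0026 with upper-quartile factors and between -0.035 and 0.025 with a mouse left out, and Oxt was 0.0084 with the offset. The offset moved the median of all features from -0.00062 to 0.084 and upper-quartile factors moved it to 0.0049. These 2 settings shift all genes together, and the part of that shift in the flips of Npy and Oxt was not tested. The cause of the other changes was not tested either. No paired analysis was possible because the mouse numbers of the 2 diets are all different. Depth limits Agrp, Ghrh and Galr1, with at most 22 counts in any mouse.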

Other observations

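Further feeding-related peptides, Nmu and Prlh, were too rare for the test and are given as counts, chosen after their values were seen. Nmu, the precursor of neuromedin U, which reduces food intake, had 8, 6 and 5 counts in control mice 2, 5 and 10 and 1, 2 and 1 counts in PLDP mice 17, 22 and 26. Prlh, the precursor of prolactin-releasing peptide, had 3, 2 and 2 counts in the control mice and 1, 0 and 0 counts in the PLDP mice. For both, the highest PLDP mouse was below the lowest control mouse, as for Gal, and the caudal hindbrain markers were lower in the same mice. Their part in these counts was not tested. Among the features tested 6.9% were separated in this way, a share that does not apply to genes with so few counts, for which none was computed. Of the other untested peptides on the same list, Qrfp, Npvf, Nms and Nmb had at most 5 counts in any mouse and overlapped between the diets, and Kiss1 and Rln3 had 0 in all 6 mice. Sim1, a transcription factor of paraventricular neurons on the hypothalamus list also chosen after its values were seen, had 9, 10 and 9 counts in control mice 2, 5 and 10 and 8, 20 and 20 counts in PLDP mice 17, 22 and 26, which separates PLDP mouse 17 from the rest of its group. PLDP mouse 17, the mouse with the lowest Pmch, also had the lowest sums of hypothalamus markers (96.9 CPM, against 101.5 to 113.3 CPM in the other 5 mice), of choroid plexus markers (590.8 CPM, against 693.1 to 813.2 CPM) and of thalamus markers (276.5 CPM, against 303.7 to 341.2 CPM).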
